A study of Danio rerio with 6 samples.

Results

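*Hox* genes encode homeodomain transcription factors that lie side by side in clusters, and their order along the chromosome follows the order of their expression domains from the hindbrain to the tip of the tail. Genes at the 3′ end of a cluster (low paralogue numbers) act in the hindbrain and anterior trunk, and genes at the 5′ end (high paralogue numbers) act in the posterior trunk, the tail and the distal part of paired appendages. The products bind DNA together with TALE homeodomain proteins of the Pbx, Meis and Pknox families, and the clusters respond to retinoic acid, Cdx factors and chromatin regulators. All genes whose names in the transcript tables begin with hoxa, hoxb, hoxc or hoxd and a paralogue number were taken, which gave 48 of 31886 genes. Their chromosomes matched the 7 cluster names, with 6 genes of *hoxaa* on chromosome 19, 5 of *hoxab* on 16, 11 of *hoxba* on 3, 4 of *hoxbb* on 12, 11 of *hoxca* on 23, 4 of *hoxcb* on 11 and 7 of *hoxda* on 9 (GRCz11). No gene of the tables carries the name *hoxa3a*, while the transcripts named *hoxa4a* run from 19754950 to 19780245 on chromosome 19. In the order of genes in the RefSeq annotation (assembly GRCz12tu) *hoxa3a* is the neighbour of *hoxa4a*, so the *hoxa4a* value may hold both genes.

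RNA-Seq was performed on 3 pools of *zrsr2hg129/hg129* embryos (clutches 3, 4 and 7) and 3 pools of WT embryos (clutches 12, 13 and 15), all of the Tab5 strain at 3 days post fertilization (dpf). Each pool held the bodies of 10 embryos whose heads had been cut off for genotyping. The hg129 allele is an 11 bp deletion in exon 7 that shifts the reading frame of *zrsr2*, which encodes a 3′ splice-site recognition factor of the minor spliceosome. The mutant pools came from in-crosses of heterozygotes and the WT pools from in-crosses of WT siblings, no clutch gave both genotypes, and RNA integrity was lower in every mutant pool, so the effects of clutch, of cross and of RNA quality cannot be told apart from that of genotype. The deposited FPKM values were summed per gene name and divided by a factor per pool (median of ratios), and these scaled FPKM are the levels given throughout. Every factor of a mutant pool (0.860 to 0.982) was below every factor of a WT pool (1.07 to 1.12), and the median log2 fold change over the 20018 genes tested was 0.01 with and -0.19 without this scaling. Coverage times length came to 8.85 to 9.17 gigabases in the mutant pools and 7.50 to 9.26 gigabases in the WT pools. *zrsr2* itself had 0.596, 0.808 and 1.098 scaled FPKM in the mutant pools, against 1.30, 1.37 and 1.25 scaled FPKM in the WT pools, lower in each mutant pool than in any WT pool, but it did not pass the test across all genes (log2 fold change -0.62, SE 0.23, adjusted p = 0.173). In whole bodies, a change in the number of cells that express a gene and a change in the RNA per cell cannot be told apart.

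Most *Hox* genes were higher in the mutants, mostly by less than 2-fold. Over named transcripts, those that passed the test all lay towards the 5′ end of the clusters. With transcripts that carry no gene name added, 14 passed (8.99% of all genes), 11 in paralogue groups 9 to 13 and 3 in groups 1 to 8. Of the 48 genes, 47 reached the minimum mean of 0.1 FPKM and were tested, and *hoxa1a* did not. The log2 fold change (mutant over WT, on the log2(FPKM + 0.1) scale) was above 0 for 40 of the 47, against 50.8% of all genes tested, and its median was 0.46, a fold of 1.38. In 24 of the 47 all mutant pools lay above all WT pools, against 14.6% of all genes. No *Hox* gene had all mutant pools below all WT pools, which held for 16.0% of all genes. Without scaling between pools, 34 of 47 were above 0 and the median was 0.24, against a median of -0.19 over all genes. The share of all genes above 0 without scaling is not given here.

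Across all genes tested with limma and Benjamini-Hochberg adjustment, 4 *Hox* genes had an adjusted p below 0.05, all 4 higher in the mutants (3.69% of all genes passed in either direction and 1.34% passed as higher in the mutants). They were *hoxa11b*, *hoxd12a*, *hoxb13a* and *hoxc9a*. Of these, *hoxa11b* and *hoxd12a* also differed by at least 2-fold, against 2.80% of all genes. The count of 4 fell to 0 when WT clutch 12 or WT clutch 13 was left out, to 1 without mutant clutch 7 or WT clutch 15 and to 2 without mutant clutch 4, while the median log2 fold change of the *Hox* genes stayed between 0.39 and 0.52 over all 6 leave-outs. In limma-voom on reads estimated from coverage, 2 *Hox* genes passed. The shares of all genes that passed in the leave-outs and in limma-voom are not given here. These changes in count therefore cannot be set against those over all genes.

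**Figure D1:**
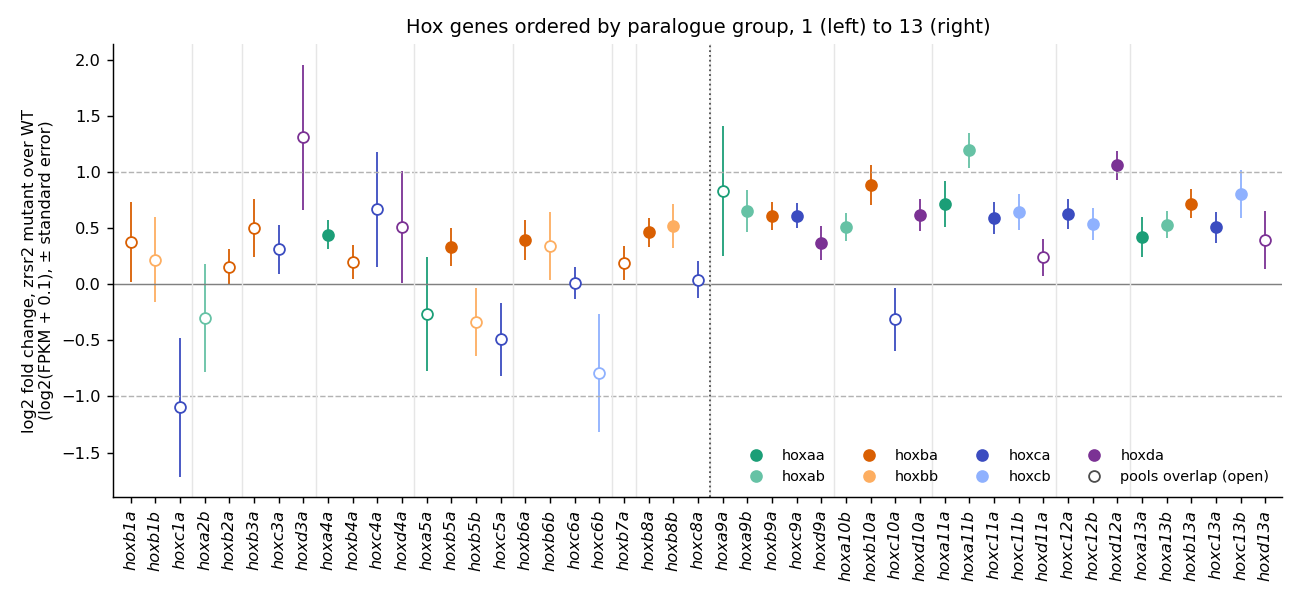
Log2 fold change (zrsr2 mutant over WT, y axis) with its standard error for the 47 tested Hox genes, ordered by paralogue group from 1 at the left to 13 at the right and coloured by cluster. Filled points are genes whose 3 mutant pools all lie on one side of the 3 WT pools, open points are genes whose pools overlap, the dotted line divides groups 1 to 8 from 9 to 13, and the dashed lines mark a 2-fold change. Right of the dotted line 22 of 23 points lie above 0.

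The split by paralogue group was chosen after the values had been seen, and it is given as a description. In groups 9 to 13, 22 of 23 genes were above 0 (50.8% of all genes) and 19 had all mutant pools above all WT pools (14.6% of all genes), with a median log2 fold change of 0.61. In groups 1 to 8, 18 of 24 tested genes were above 0 (50.8% of all genes) and 5 had all mutant pools above all WT pools (14.6% of all genes), with a median of 0.27. All 4 genes with an adjusted p below 0.05 were in groups 9 to 13. Over named transcripts none of groups 1 to 8 passed in limma (3.69% of all genes) or in limma-voom. With unnamed transcripts added, 3 of them passed (8.99% of all genes), *hoxc6b*, *hoxd3a* and *hoxb8a*. In limma over named transcripts 3 of groups 1 to 8 had an unadjusted p below 0.05, against 18 in groups 9 to 13. The share of all genes with an unadjusted p below 0.05 is not given here. Without scaling, 22 of 23 genes of groups 9 to 13 and 12 of 24 genes of groups 1 to 8 were above 0. The share of all genes above 0 in that fit is not given here. Its medians were 0.39 in groups 9 to 13 and 0.046 in groups 1 to 8, against -0.19 over all genes. With scaling, the median of groups 1 to 8 was 0.12 without WT clutch 13.

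Group 9 genes pattern the trunk, and in mouse and chick *Hoxc9* sets the thoracic identity of spinal motor neurons. *hoxc9a* had 8.21, 9.09 and 9.18 scaled FPKM in the mutant pools, against 5.93, 5.73 and 5.54 scaled FPKM in the WT pools (log2 fold change 0.61, SE 0.11, adjusted p = 0.0403). Its pools did not overlap, but it no longer passed when any of the 6 pools was left out (adjusted p of 0.0511 to 0.139), without scaling (adjusted p = 0.133) or in limma-voom (adjusted p = 0.0523). *hoxb9a* had 12.8, 15.8 and 13.5 scaled FPKM in the mutant pools, against 8.84, 8.99 and 9.52 scaled FPKM in the WT pools (log2 fold change 0.61, SE 0.12, adjusted p = 0.0516). *hoxa9b* had 8.10, 10.3 and 10.7 scaled FPKM in the mutant pools, against 4.94, 6.51 and 7.08 scaled FPKM in the WT pools (log2 fold change 0.65, SE 0.19, adjusted p = 0.106). *hoxd9a*, the highest gene of *hoxda*, had 11.03, 13.5 and 10.1 scaled FPKM in the mutant pools, against 9.89, 8.35 and 8.35 scaled FPKM in the WT pools (log2 fold change 0.37, SE 0.15, adjusted p = 0.214). The mutant pools of these 3 genes also lay above their WT pools without passing the test. Only *hoxa9a* of the 5 genes of the group overlapped, with 3.34, 5.87 and 3.61 scaled FPKM in the mutant pools, against 0.827, 3.56 and 3.85 scaled FPKM in the WT pools.

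Group 10 genes are known in mouse for the suppression of ribs and for lumbar motor neuron identity. *hoxb10a* had 3.95, 4.15 and 5.33 scaled FPKM in the mutant pools, against 2.61, 2.50 and 1.997 scaled FPKM in the WT pools (log2 fold change 0.89, SE 0.18, adjusted p = 0.0506). *hoxd10a* had 12.2, 10.0 and 11.1 scaled FPKM in the mutant pools, against 8.10, 6.33 and 7.18 scaled FPKM in the WT pools (log2 fold change 0.62, SE 0.14, adjusted p = 0.0672), and *hoxa10b*, the highest gene of *hoxab*, had 13.8, 11.8 and 14.2 scaled FPKM in the mutant pools, against 9.07, 8.73 and 9.88 scaled FPKM in the WT pools (log2 fold change 0.51, SE 0.12, adjusted p = 0.0749). These 3 genes were separated by genotype but did not pass. *hoxc10a* was the only gene of groups 9 to 13 with a log2 fold change below 0, and its pools overlapped, with 2.23, 1.27 and 1.41 scaled FPKM in the mutant pools, against 1.57, 2.68 and 1.87 scaled FPKM in the WT pools (log2 fold change -0.31, SE 0.28, adjusted p = 0.544). It shares its locus with *hoxc9a*, *hoxc3a* and *hoxc4a*, so reads of overlapping transcripts could be given to more than 1 of them.

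Group 11 held the *Hox* gene with the largest change that passed the test over named transcripts. In mouse this group patterns the middle segment of the limb and the kidney, and in zebrafish *hoxa11b* is expressed in the pectoral fin. *hoxa11b* had 3.69, 4.09 and 3.204 scaled FPKM in the mutant pools, against 1.38, 1.51 and 1.74 scaled FPKM in the WT pools, so that the lowest mutant pool lay above the highest WT pool. It averaged 3.66 ± 0.445 in the mutant pools and 1.54 ± 0.181 in the WT pools (SD, n = 3 each), a fold of 2.29 (log2 fold change 1.19, SE 0.16, adjusted p = 0.0189). The adjusted p was 0.0842 without WT clutch 12 and 0.0872 without WT clutch 13. Its paralogue *hoxa11a* was lower in level and had 0.959, 1.21 and 1.09999 scaled FPKM in the mutant pools, against 0.595, 0.785 and 0.507 scaled FPKM in the WT pools (log2 fold change 0.72, SE 0.20, adjusted p = 0.106). *hoxc11a* had 4.29, 5.54 and 4.92 scaled FPKM in the mutant pools, against 3.32, 3.36 and 2.99 scaled FPKM in the WT pools (log2 fold change 0.59, SE 0.14, adjusted p = 0.0732), and *hoxc11b* had 2.18, 2.54 and 2.08 scaled FPKM in the mutant pools, against 1.32, 1.63 and 1.29 scaled FPKM in the WT pools (log2 fold change 0.65, SE 0.16, adjusted p = 0.0792). In these 3 paralogues too each mutant pool was above each WT pool, and none passed. *hoxd11a* overlapped, with 6.71, 8.33 and 5.63 scaled FPKM in the mutant pools, against 6.07, 5.89 and 5.30 scaled FPKM in the WT pools (log2 fold change 0.24, SE 0.17, adjusted p = 0.439).

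Group 12 is known for the autopod of mouse limbs and the distal fin of zebrafish. *hoxd12a* had 5.56, 6.62 and 6.89 scaled FPKM in the mutant pools, against 3.06, 2.81 and 3.09 scaled FPKM in the WT pools, with the genotypes clearly separated. It averaged 6.36 ± 0.702 in the mutant pools and 2.99 ± 0.152 in the WT pools (SD, n = 3 each), a fold of 2.08 (log2 fold change 1.06, SE 0.13, adjusted p = 0.0174). It passed in 2 of the 6 leave-outs, and its adjusted p was 0.0597 without mutant clutch 7, 0.0785 without WT clutch 12, 0.085 without WT clutch 13 and 0.0546 without WT clutch 15. *hoxc12a* had 10.9, 12.3 and 10.9 scaled FPKM in the mutant pools, against 7.75, 7.88 and 6.40 scaled FPKM in the WT pools (log2 fold change 0.62, SE 0.13, adjusted p = 0.0566). *hoxc12b*, the highest gene of *hoxcb*, had 2.87, 3.71 and 3.36 scaled FPKM in the mutant pools, against 2.21, 2.19 and 2.31 scaled FPKM in the WT pools (log2 fold change 0.54, SE 0.14, adjusted p = 0.0911). Neither paralogue passed, and in both the pools did not overlap. Their fold changes were smaller than that of *hoxd12a*, a difference between genes that was not tested.

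Group 13 genes are expressed at the end of the body axis and in fin rays, and in zebrafish *hox13* genes are needed for the fin skeleton. *hoxb13a* had 7.65, 8.49 and 9.74 scaled FPKM in the mutant pools, against 4.87, 5.26 and 5.40 scaled FPKM in the WT pools, again without overlap. It averaged 8.63 ± 1.05 in the mutant pools and 5.18 ± 0.275 in the WT pools (SD, n = 3 each), a fold of 1.65 (log2 fold change 0.72, SE 0.13, adjusted p = 0.0424). It passed only when mutant clutch 3 was the pool left out, and its adjusted p was 0.0844 to 0.143 in the other 5 leave-outs. It also did not pass without scaling (adjusted p = 0.122) or in limma-voom (adjusted p = 0.0579). *hoxc13b* had 1.15, 1.31 and 1.18 scaled FPKM in the mutant pools, against 0.484, 0.679 and 0.827 scaled FPKM in the WT pools (log2 fold change 0.80, SE 0.21, adjusted p = 0.0919). The other 4 genes of the group, *hoxa13a*, *hoxa13b*, *hoxc13a* and *hoxd13a*, had log2 fold changes of 0.39 to 0.53, and of these only the pools of *hoxd13a* overlapped. The gap of *hoxa13a* was very small, with 1.791 scaled FPKM in mutant clutch 7 and 1.786 in WT clutch 15. In the fit with unnamed transcripts added its pools overlapped, at 1.78 and 1.82 in these clutches.

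**Figure D2:**
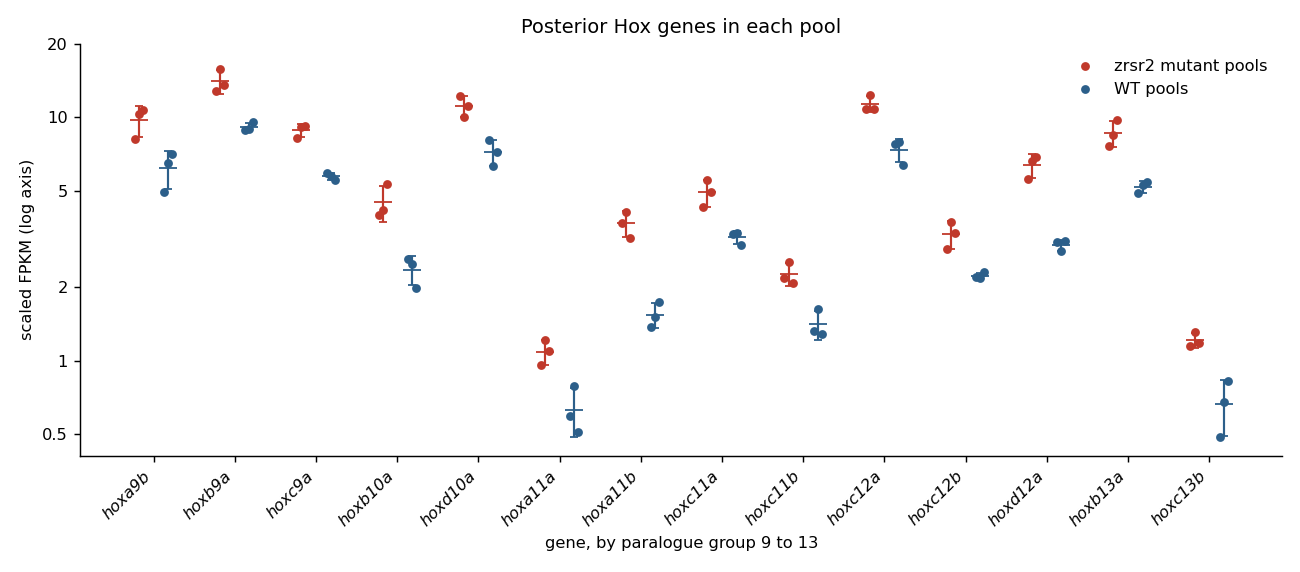
Scaled FPKM (y axis, log scale) in each pool for the 4 Hox genes with an adjusted p below 0.05 and the 10 others with the largest change among genes whose pools do not overlap, all of which belong to paralogue groups 9 to 13. Points are pools, with the zrsr2 mutant pools in red at the left and the WT pools in blue at the right of each pair, and bars are the mean and SD of 3 pools. In all 14 genes the lowest red point lies above the highest blue one, and for the 10 the lack of overlap was part of the choice.

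The middle groups, 4 to 8, held the highest gene of *hoxaa*, *hoxba*, *hoxbb* and *hoxca*, beside low genes such as *hoxc6b*. *hoxa4a*, which acts at the border of hindbrain and spinal cord, was the highest name of *hoxaa* with 14.4, 13.4 and 12.3 scaled FPKM in the mutant pools, against 9.75, 8.82 and 10.8 scaled FPKM in the WT pools (log2 fold change 0.44, SE 0.13, adjusted p = 0.110). That value may also hold *hoxa3a*, and its transcripts span *hoxa5a*. Its transcripts differed in direction. That from 19762203 to 19780245 was higher in every mutant pool (log2 fold change 1.22, adjusted p = 0.127). Those from 19762183 to 19780245 (-2.44, adjusted p = 0.389) and from 19767567 to 19769373 (-0.20, adjusted p = 0.726) overlapped. *hoxb8a*, a trunk gene and the highest of *hoxba*, had 15.3, 18.8 and 15.9 scaled FPKM in the mutant pools, against 13.1, 12.0 and 11.01 scaled FPKM in the WT pools (log2 fold change 0.46, SE 0.13, adjusted p = 0.107). In both the mutant pools lay above the WT pools without passing the test over named transcripts. With unnamed ones added *hoxb8a* passed in limma (log2 fold change 0.50, adjusted p = 0.0481) and *hoxa4a* did not (adjusted p = 0.0635). *hoxc8a* was the highest *Hox* gene of all and overlapped, with 24.1, 23.8 and 18.2 scaled FPKM in the mutant pools, against 18.6, 21.5 and 23.7 scaled FPKM in the WT pools, and its log2 fold change of 0.043 (adjusted p = 0.896) turned to -0.18 without scaling. *hoxb5b*, the highest gene of *hoxbb*, also overlapped, with 7.65, 10.0 and 4.56 scaled FPKM in the mutant pools, against 9.03, 7.37 and 10.6 scaled FPKM in the WT pools (log2 fold change -0.34, SE 0.30, adjusted p = 0.543).

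Of the 16 genes of groups 4 to 8, 12 were above 0 (50.8% of all genes). Over named transcripts none passed the test in limma (3.69% of all genes) or in limma-voom, and 3 had an unadjusted p below 0.05 in limma. In 5 of the 16 all mutant pools lay above all WT pools (14.6% of all genes), namely *hoxa4a*, *hoxb5a*, *hoxb6a*, *hoxb8a* and *hoxb8b*. The group 5 genes, which in mouse pattern the cervical and upper thoracic region, had 3 of 4 below 0, with *hoxc5a* at -0.49, *hoxb5b* at -0.34 and *hoxa5a* at -0.27. All 3 overlapped between the genotypes. *hoxc6a*, a gene of the anterior trunk, was close to equal, with 17.8, 16.03 and 13.2 scaled FPKM in the mutant pools, against 15.6, 16.04 and 14.7 scaled FPKM in the WT pools. Mutant clutch 7 was the lowest of the 6 pools for *hoxa5a*, *hoxb5b*, *hoxc5a*, *hoxb6b*, *hoxc6a* and *hoxc8a*.

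The anterior groups, 1 to 3, act in the hindbrain and neural crest. In groups 1 and 2 only *hoxb1b* and *hoxb2a* averaged above 1 scaled FPKM in the WT pools, while *hoxb3a*, *hoxc3a* and *hoxd3a* of group 3 all did. *hoxa1a* was at 0.0199 to 0.0678 scaled FPKM in the mutant pools and 0.0163 to 0.0977 in the WT pools over its named transcripts, but an unnamed transcript took 92.7 to 98.3% of its FPKM in the mutant pools and 87.3 to 98.3% in the WT pools. With that transcript added *hoxa1a* had 0.926, 1.502 and 1.14 scaled FPKM in the mutant pools, against 0.778, 0.945 and 0.795 scaled FPKM in the WT pools (log2 fold change 0.44, SE 0.20, adjusted p = 0.209), and the pools overlapped. Over named transcripts, 6 of the 8 genes tested were above 0 (50.8% of all genes) and all 8 overlapped. Of all genes, 14.6% had all mutant pools above and 16.0% all below the WT pools. None of the 8 passed in limma (3.69% of all genes) or in limma-voom, and 0 had an unadjusted p below 0.05 in limma. *hoxd3a* had the largest log2 fold change of all *Hox* genes but also a wide spread, with 3.16, 0.992 and 7.20 scaled FPKM in the mutant pools, against 1.25, 1.21 and 0.865 scaled FPKM in the WT pools (log2 fold change 1.31, SE 0.65, adjusted p = 0.284). *hoxc1a* had the lowest, with 0.0509, 0.0382 and 0.509 scaled FPKM in the mutant pools, against 0.339, 0.632 and 0.285 scaled FPKM in the WT pools (log2 fold change -1.10, SE 0.62, adjusted p = 0.341). Both are named for their place at the ends of the range, outside the rule for named genes.

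Summed over the genes of a paralogue group, each of groups 9 to 13 was higher in every mutant pool than in any WT pool. The sum of group 12 was 19.3, 22.7 and 21.1 FPKM in the mutant pools, against 13.0, 12.9 and 11.8 FPKM in the WT pools, a ratio of means of 1.67, the largest among the groups. The ratios of groups 9, 10, 11 and 13 were 1.48, 1.46, 1.499 and 1.52. Groups 3 and 4 were also separated, with ratios of 1.56 and 1.32. Group 3 overlapped without *hoxd3a*, whose mutant pools spread widely, and group 4 overlapped without *hoxa4a*, which may hold *hoxa3a*. Groups 1, 2, 5, 6, 7 and 8 overlapped, with ratios between 0.948 for group 5 and 1.21 for group 1. Group 8, with 48.3, 52.6 and 40.4 FPKM in the mutant pools, against 37.9, 38.6 and 40.7 FPKM in the WT pools, overlapped only through mutant clutch 7 and WT clutch 15. These are sums of scaled values. Without the scaling groups 3, 4 and 9 overlapped between the genotypes, while groups 10 to 13 stayed apart. The log2 ratio was 0.56 with and 0.34 without scaling for group 9, and 0.74 and 0.52 for group 12. No test was run on these sums.

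**Figure D3:**
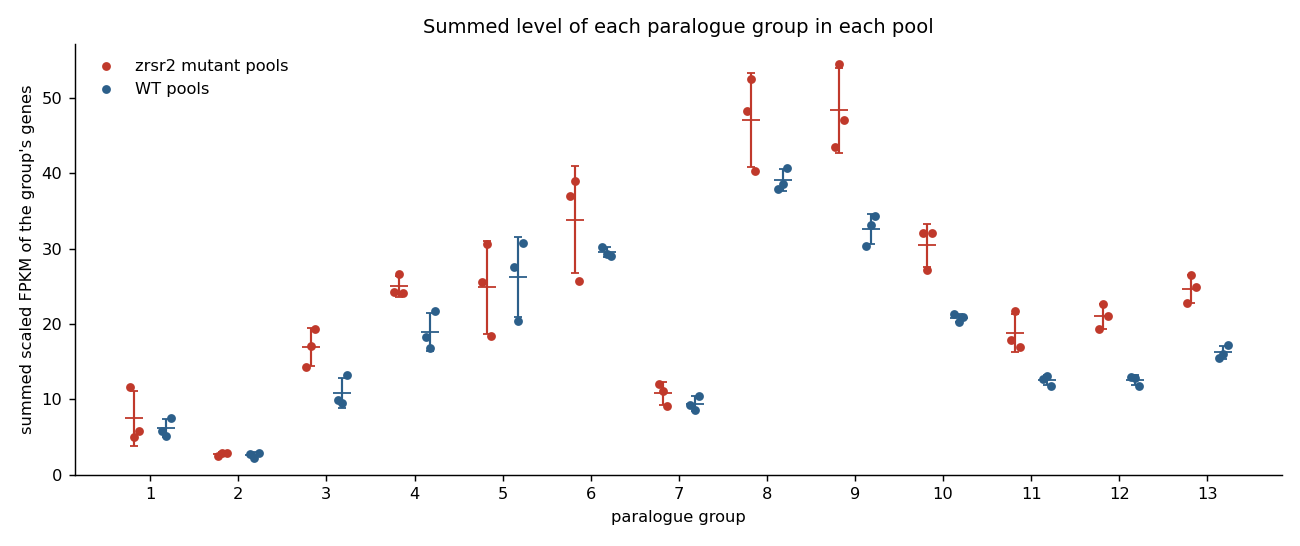
Summed scaled FPKM of the genes of each Hox paralogue group (y axis) by group number (x axis), with the zrsr2 mutant pools in red at the left and the WT pools in blue at the right of each pair. Points are pools and bars are the mean and SD of 3 pools. From group 9 on, the red and blue points do not overlap.

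Summed over a whole cluster, *hoxab*, *hoxba*, *hoxcb* and *hoxda* were higher in every mutant pool than in any WT pool, and *hoxaa*, *hoxbb* and *hoxca* overlapped. *hoxab*, which has 4 of its 5 genes in groups 9 to 13, had 29.4, 30.4 and 31.9 FPKM in the mutant pools, against 18.0, 19.5 and 22.0 FPKM in the WT pools, a ratio of means of 1.54. *hoxda* had 40.7, 43.4 and 44.9 FPKM in the mutant pools, against 30.3, 26.4 and 27.5 FPKM in the WT pools, a ratio of 1.53. The ratio was 1.36 for *hoxba* and 1.40 for *hoxcb*, the lowest cluster in level. Both of these overlapped between the genotypes without scaling, at log2 ratios of 0.22 and 0.27, while *hoxab* and *hoxda* stayed apart. *hoxbb*, which has no gene of groups 9 to 13, had 38.0, 36.0 and 20.7 FPKM in the mutant pools, against 27.6, 23.0 and 30.0 FPKM in the WT pools, and mutant clutch 7 was below all WT pools. *hoxca* had 85.8, 92.4 and 74.8 FPKM in the mutant pools, against 69.7, 73.0 and 75.6 FPKM in the WT pools, and its log2 ratio of 0.21 was -0.016 without scaling between pools.

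A ratio taken within each pool does not depend on the scaling. The summed FPKM of groups 9 to 13 over that of groups 1 to 8 was 0.771, 0.825 and 0.975 in mutant clutches 3, 4 and 7, against 0.656, 0.730 and 0.614 in WT clutches 12, 13 and 15. The genotypes did not overlap, but the gap between mutant clutch 3 and WT clutch 13 was small. With transcripts that carry no gene name added, mutant clutch 3 was at 0.602 and WT clutch 13 at 0.627, so that the genotypes overlapped. The separate sums were 143 ± 8.65 FPKM in the mutant pools and 94.9 ± 1.63 FPKM in the WT pools for groups 9 to 13, and 169 ± 20.5 FPKM in the mutant pools and 143 ± 12.8 FPKM in the WT pools for groups 1 to 8 (SD, n = 3 each). Within single clusters the same ratio was separated in *hoxba* (0.382 to 0.471 in mutant pools, 0.303 to 0.359 in WT pools) and *hoxca* (0.615 to 0.847 in mutant pools, 0.425 to 0.534 in WT pools). It overlapped in *hoxaa*, *hoxab*, *hoxcb* and *hoxda*, where the groups 1 to 8 are represented by 3 genes or fewer, and in *hoxda* its mean was lower in the mutants (7.62 in mutant pools, 10.2 in WT pools).

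**Figure D4:**
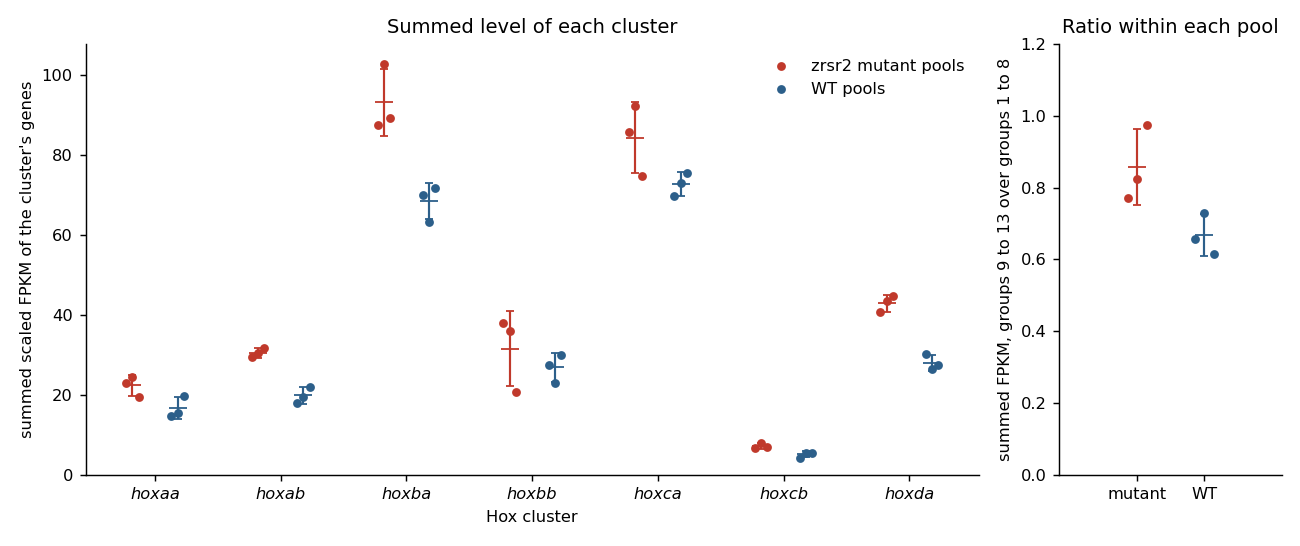
Left, summed scaled FPKM of the genes of each Hox cluster (y axis) in the zrsr2 mutant pools (red, left of each pair) and the WT pools (blue, right). Right, the ratio within each pool of the summed FPKM of paralogue groups 9 to 13 to that of groups 1 to 8. Points are pools and bars are the mean and SD of 3 pools, and hoxab, hoxba, hoxcb, hoxda and the ratio show no overlap between the genotypes.

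Some values depended on which transcripts were counted as the gene. StringTie assembled 37 transcripts without a gene name that overlap 16 of the *Hox* genes on their strand, beside 87 named ones, and they took 16.7 to 17.4% of *Hox* FPKM in the mutant pools and 13.0 to 16.4% in the WT pools. Many of them run across neighbouring genes of a cluster. With these added to the gene they overlap, across all genes, 14 *Hox* genes had an adjusted p below 0.05, all higher in the mutants (8.99% of all genes passed under this definition), and 43 of 48 were above 0. These 14 included all 4 of the genes that passed with named transcripts alone, 11 were in groups 9 to 13 and 3 in groups 1 to 8.

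*hoxc6b*, an anterior trunk gene of *hoxcb* that is named here because its direction turned, had 0.597, 0.393 and 0.210 scaled FPKM in the mutant pools, against 0.291, 1.04 and 1.14 scaled FPKM in the WT pools over its named transcripts (log2 fold change -0.79, SE 0.52, adjusted p = 0.413). Over all its transcripts it had 4.90, 4.31 and 4.13 scaled FPKM in the mutant pools, against 2.02, 1.65 and 1.75 scaled FPKM in the WT pools (log2 fold change 1.25, SE 0.14, adjusted p = 0.00379), higher in every mutant pool. In *hoxa11b* the unnamed transcript, which runs on into *hoxa10b*, took 31.7 to 32.4% of the FPKM in the mutant pools and 45.2 to 64.3% in the WT pools, and the log2 fold change was 0.62 with it (adjusted p = 0.0419), below 2-fold. *hoxd3a* had 9.95, 9.03 and 13.2 scaled FPKM in the mutant pools, against 6.78, 5.13 and 4.87 scaled FPKM in the WT pools with unnamed transcripts added (log2 fold change 0.92, SE 0.19, adjusted p = 0.0286), and the genotypes then no longer overlapped. *hoxc10a* had 2.38, 1.39 and 1.52 scaled FPKM in the mutant pools, against 3.00, 2.73 and 2.93 scaled FPKM in the WT pools in that sum (log2 fold change -0.71, SE 0.20, adjusted p = 0.0718), lower in every mutant pool. *hoxa2b* and *hoxc1a*, both below 0 over named transcripts, were above 0 with unnamed ones added, at 0.42 and 0.39, and neither passed. Unnamed transcripts assigned to *hoxd3a* also span *hoxd4a*, and that assigned to *hoxa2b* also spans *hoxa9b*. The added sums of *hoxd3a* and *hoxa2b* may therefore hold reads of these neighbours.

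**Figure D5:**
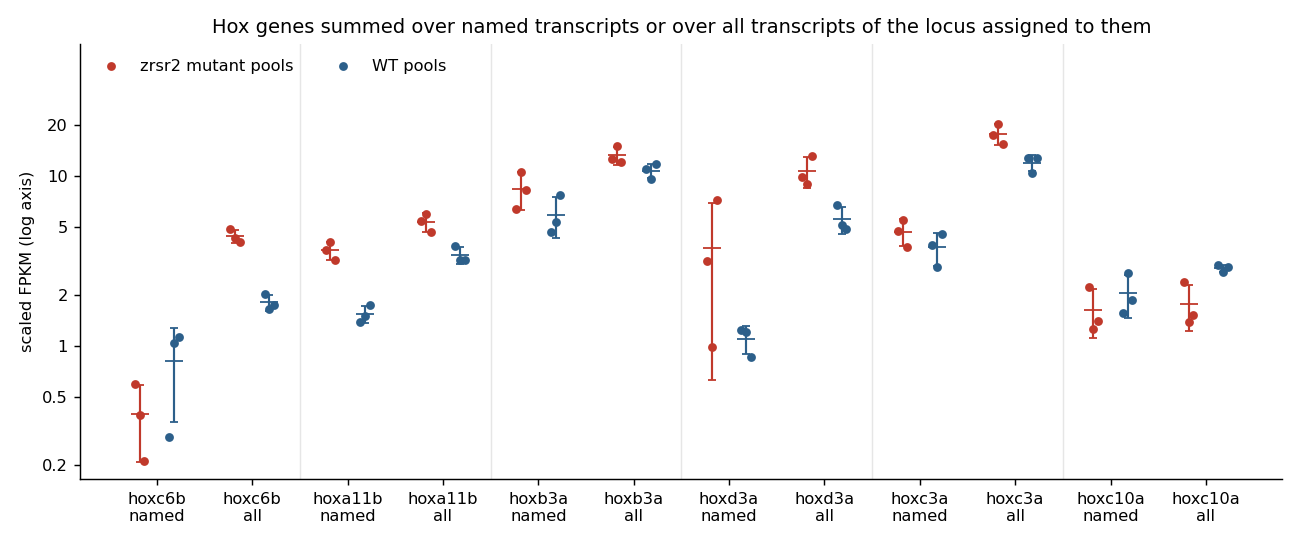
Scaled FPKM (y axis, log scale) of 6 Hox genes over their named transcripts (named) and over named and unnamed transcripts of the gene (all), with the zrsr2 mutant pools in red at the left and the WT pools in blue at the right of each pair. Points are pools and bars are the mean and SD of 3 pools. hoxc6b is lower on average in the mutants over named transcripts and higher in every mutant pool over all transcripts.

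At the level of single transcripts, 107 of the 124 *Hox* transcripts were tested among 43672, and 1 had an adjusted p below 0.05 (1.31% of all transcripts passed). It is an unnamed transcript with 5 exons from 23710796 to 23749910 on the plus strand of chromosome 3. It was assigned by overlap to *hoxb3a*, a hindbrain gene, and its span also covers the named transcripts of *hoxb4a*. It had 2.90, 2.15 and 2.199 scaled FPKM in the mutant pools, against 0.680, 0.633 and 0.369 scaled FPKM in the WT pools (log2 fold change 1.95, SE 0.28, adjusted p = 0.0449). It no longer passed when any pool was left out. The named transcript of *hoxa11b* (log2 fold change 1.11, adjusted p = 0.0599) and the 3-exon transcript of *hoxd12a* (log2 fold change 1.39, adjusted p = 0.0786) did not pass in this fit. The 2-exon transcript of *hoxd12a* had the opposite sign and overlapped, with 0, 0.165 and 0.167 scaled FPKM in the mutant pools, against 0.106, 1.28 and 0.861 scaled FPKM in the WT pools (log2 fold change -1.76, SE 0.85, adjusted p = 0.368). In the same fit a *hoxb3a* transcript of 3 exons had 0.129, 0.0161 and 0.0361 scaled FPKM in the mutant pools, against 0.587, 0.427 and 0.886 scaled FPKM in the WT pools (log2 fold change -2.21, SE 0.43, adjusted p = 0.0941), the opposite direction to the unnamed one. Of the 107, 28 had an unadjusted p below 0.05, and the share of all transcripts below that value is not given here.

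The genes that work with or upstream of *Hox* genes gave few calls, and the exceptions were higher in the mutants. Of 14 TALE loci tested, 10 were above 0 (50.8% of all genes), 5 had all mutant pools above all WT pools (14.6% of all genes), 1 had all below (16.0% of all genes), and the median log2 fold change was 0.23. *meis1b*, a cofactor of *Hox* proteins in trunk and fin, was the only one with an adjusted p below 0.05 (3.69% of all genes) and the highest of the list, with 61.1, 61.5 and 59.6 scaled FPKM in the mutant pools, against 41.7, 38.2 and 38.9 scaled FPKM in the WT pools (log2 fold change 0.62, SE 0.10, adjusted p = 0.0320). It did not pass without scaling, in limma-voom or when any of the 6 pools was left out (adjusted p of 0.0547 to 0.129). *meis1a*, the next in level, overlapped, with 24.0, 15.8 and 18.5 scaled FPKM in the mutant pools, against 14.2, 14.1 and 16.8 scaled FPKM in the WT pools.

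Among 15 upstream homeobox and signal genes, 12 were above 0 (50.8% of all genes), with a median of 0.47, 6 had all mutant pools above all WT pools (14.6% of all genes), 2 had all below (16.0% of all genes) and 1 was called (2.80% of all genes). *cyp26a1*, which degrades retinoic acid, had 7.92, 7.14 and 7.03 scaled FPKM in the mutant pools, against 2.78, 2.79 and 3.29 scaled FPKM in the WT pools, a fold of 2.45 (log2 fold change 1.29, SE 0.13, adjusted p = 0.00996), and did not pass without WT clutch 12 (adjusted p = 0.056) or WT clutch 13 (adjusted p = 0.0543). *aldh1a2*, which makes retinoic acid and is the highest of the list, had 24.5, 16.9 and 18.9 scaled FPKM in the mutant pools, against 18.1, 18.0 and 19.1 scaled FPKM in the WT pools (log2 fold change 0.11, below 0 without scaling). Of the retinoic acid receptor genes, *rarga*, named for an unadjusted p below 0.05 outside the rule for named genes, was higher in every mutant pool without passing, with 5.22, 5.24 and 4.86 scaled FPKM in the mutant pools, against 3.57, 3.41 and 2.303 scaled FPKM in the WT pools (log2 fold change 0.73, SE 0.19, adjusted p = 0.0870), and *raraa* overlapped, with 8.70, 6.40 and 5.91 scaled FPKM in the mutant pools, against 5.98, 5.10 and 5.44 scaled FPKM in the WT pools. *cdx1a* and *cdx1b*, which encode Cdx factors, had log2 fold changes of -0.36 and -0.36 and were lower in every mutant pool than in any WT pool, without passing. *cdx4* overlapped.

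Of 14 Polycomb and trithorax genes, none passed in limma (3.69% of all genes) or limma-voom, and 2 had an unadjusted p below 0.05 in limma. In all, 10 were above 0 (50.8% of all genes), and their median log2 fold change was 0.13. All mutant pools lay above all WT pools in 3 (14.6% of all genes) and below in 2 (16.0% of all genes). The 3 were *ezh2* and *suz12a*, subunits of Polycomb repressive complex 2, at log2 fold changes of 0.38 and 0.15, and *bmi1a*, of Polycomb repressive complex 1, at 0.33, and without scaling *suz12a* was at -0.069. *rnf2*, the highest of the list and a catalytic subunit of Polycomb repressive complex 1, had 18.3, 15.97 and 16.4 scaled FPKM in the mutant pools, against 15.8, 17.4 and 16.3 scaled FPKM in the WT pools. *suz12b*, another subunit of Polycomb repressive complex 2 and the next highest, had 4.78, 5.39 and 5.06 scaled FPKM in the mutant pools, against 5.16, 5.98 and 5.53 scaled FPKM in the WT pools, and both overlapped. *eed*, a core subunit of that complex, had 2.13, 4.09 and 2.71 scaled FPKM in the mutant pools, against 5.24, 5.19 and 6.70 scaled FPKM in the WT pools (log2 fold change -0.96, SE 0.25, adjusted p = 0.0910), and *kmt2a*, a trithorax methyltransferase, had 1.05, 1.13 and 1.15 scaled FPKM in the mutant pools, against 1.49, 1.48 and 1.53 scaled FPKM in the WT pools (log2 fold change -0.41, SE 0.14, adjusted p = 0.146). Both are named for an unadjusted p below 0.05, outside the rule for named genes, and both were lower in every mutant pool without passing.

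Of 62 named genes that lie within 100 kb of a cluster, 37 were tested, 24 were above 0 (50.8% of all genes) with a median of 0.09, and 6 had all mutant pools above the WT pools (14.6% of all genes). The 3 with all mutant pools below (16.0% of all genes) were *skap2* at *hoxab* and *tmem106a* and BX001014.1 at *hoxbb*, at log2 fold changes of -0.66, -0.35 and -1.68, and none of these passed (all 3 had an unadjusted p below 0.05). The 1 with an adjusted p below 0.05 (3.69% of all genes) was CR751227.2, which spans 23701915 to 23860941 of chromosome 3 on its minus strand, opposite part of *hoxba*, with 0.950, 0.331 and 0.636 scaled FPKM in the mutant pools, against 0, 0.0938 and 0.0695 scaled FPKM in the WT pools (log2 fold change 2.22, SE 0.42, adjusted p = 0.0458). It did not pass with a pseudocount of 1 or 0.01, nor in 5 of the 6 leave-outs, and whether strand was used to divide reads between it and *hoxba* is not given in the sources used here. The *evx* genes, homeobox genes that adjoin the 5′ ends of clusters, were all higher in every mutant pool without passing, with log2 fold changes of 0.63 for *evx1* at *hoxaa*, 0.60 for *evx2* at *hoxda* and 0.47 for *eve1* at *hoxba*. The transcripts named *evx1* span 19717971 to 19871211 of chromosome 19 on the minus strand, opposite all of *hoxaa*. The *evx1* value is therefore not that of a neighbour alone. The *evx* genes, *rarga* near *hoxca* and *rargb* near *hoxcb* were counted both here and among the upstream genes. Of them, *rarga* and the *evx* genes had all mutant pools above all WT pools in both counts. *lnpa*, next to *evx2*, had 12.2, 13.5 and 13.6 scaled FPKM in the mutant pools, against 7.93, 9.45 and 8.63 scaled FPKM in the WT pools (log2 fold change 0.59, SE 0.12, adjusted p = 0.0512). *hoxcb* lies on chromosome 11, as *zrsr2* does, at a distance of 10.5 Mb, and 3.05% of the 688 genes tested on that chromosome were called, against 2.80% of all genes.

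Among the markers of tissues that express *Hox* genes, 3 passed the test (3.69% of all genes), *and1*, *and2* and *mnx1*. The labelled tissue was present, with trunk muscle markers at 21652 to 26419.7 summed FPKM in the mutant pools and 15365 to 18858 in the WT pools, while of the 9 markers of the removed head, *rho*, *crx*, *rx1* and *six3b* averaged below 0.1 FPKM in both genotypes and *otx2b*, the highest over the 6 pools, was at 0.158 to 0.364 FPKM in the mutant pools and 0.203 to 1.46 FPKM in the WT pools. Of the 4 head markers tested, 2 were above 0 (50.8% of all genes), 2 were below 0 and none passed (3.69% of all genes). *foxg1a* had 0.454, 0.448 and 0.513 scaled FPKM in the mutant pools, against 0.376, 0.106 and 0.408 in the WT pools, without overlap (14.6% of all genes). *emx3* was also above 0 and overlapped, at 0.229 to 0.554 FPKM in the mutant pools and 0.148 to 0.234 in the WT pools. *otx2b* and *en2a* were below 0 and overlapped, and both were highest in WT clutch 13, at 1.46 and 0.575 FPKM, where *foxg1a* was lowest. Where the cut fell in each pool is not given in the sources used here, and its effect on the *Hox* values was not tested. All 4 muscle markers were above 0 (50.8% of all genes), with a median log2 fold change of 0.56. In 3 of the 4 all mutant pools lay above all WT pools (14.6% of all genes). *tnnt3b* overlapped widely, at 1131 to 5246.5 FPKM in the mutant pools and 337 to 4345 FPKM in the WT pools. The summed muscle markers were separated with scaling and overlapped without it. None of the 4 passed in limma (3.69% of all genes) or limma-voom, and 1 had an unadjusted p below 0.05 in limma. Of the 5 genes listed as pectoral fin markers, all 5 were above 0 (50.8% of all genes), 4 had all mutant pools above all WT pools (14.6% of all genes) and 2 passed (3.69% of all genes), and their sum was 479 to 556 FPKM in the mutant pools and 231 to 263 FPKM in the WT pools. That sum is mostly *and1* and *and2*, which encode the actinodin fibres of the fin fold, so it cannot be read as a value of the pectoral fin alone. *and1* had 206, 228 and 219.8 scaled FPKM in the mutant pools, against 88.7, 84.3 and 108 scaled FPKM in the WT pools (log2 fold change 1.22, SE 0.14, adjusted p = 0.0136), and *and2* had 267, 323 and 286 scaled FPKM in the mutant pools, against 146, 144 and 150.4 scaled FPKM in the WT pools (log2 fold change 0.99, SE 0.12, adjusted p = 0.0174). Of the 6 leave-outs *and1* passed in 4 and *and2* in 2. *tbx5a*, which defines the pectoral fin bud, overlapped at 0.838 to 1.40 FPKM in the mutant pools and 0.479 to 1.22 FPKM in the WT pools.

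Of the tail bud and notochord markers, 2 of 5 were tested, *tbxta* had 4.38, 5.34 and 4.42 scaled FPKM in the mutant pools, against 2.50, 2.31 and 3.51 scaled FPKM in the WT pools (log2 fold change 0.76, SE 0.19, adjusted p = 0.0823), *wnt3a* overlapped with 0.130, 0.123 and 0.177 scaled FPKM in the mutant pools, against 0.132, 0.107 and 0.205 scaled FPKM in the WT pools (log2 fold change -0.014, SE 0.26, adjusted p = 0.978), and *noto* was at 0 in all 6 pools. All 6 sclerotome and dermomyotome markers were above 0 (50.8% of all genes), with summed FPKM of 24.9 to 30.5 in mutant pools and 18.3 to 23.6 in WT pools. None passed in limma (3.69% of all genes) or limma-voom, and 2 had an unadjusted p below 0.05 in limma. The summed spinal cord neuron markers overlapped (26.2 to 28.1 FPKM in mutant pools, 22.7 to 29.5 FPKM in WT pools), with the motor neuron gene *mnx1* at 5.76, 4.98 and 5.73 scaled FPKM in the mutant pools, against 2.96, 2.76 and 2.71 scaled FPKM in the WT pools (log2 fold change 0.94, SE 0.12, adjusted p = 0.0189, passing in 2 of the 6 leave-outs) and the pan-neuronal gene *elavl3* at 1.30, 1.21 and 1.96 scaled FPKM in the mutant pools, against 5.61, 4.84 and 2.83 scaled FPKM in the WT pools (log2 fold change -1.48, SE 0.30, adjusted p = 0.0531). Of 8 spinal cord markers tested, 5 were above 0 (50.8% of all genes). In 2, *mnx1* and *isl1* (log2 fold change 0.46, adjusted p = 0.128), all mutant pools lay above all WT pools (14.6% of all genes). Unlike *elavl3*, *elavl4* overlapped at a log2 fold change of -0.096 (adjusted p = 0.751), as did *slc17a6b* at 0.0067 (adjusted p = 0.987). Another 2, *elavl3* and *gad1b* (log2 fold change -0.72, adjusted p = 0.0888), had all below (16.0% of all genes). Of 5 hindbrain markers, 3 were above 0 (50.8% of all genes), none had all mutant pools above (14.6% of all genes) and 1 had all below (16.0% of all genes). That 1 was *egr2b* (log2 fold change -0.62, SE 0.21, adjusted p = 0.153), which did not pass. The summed hindbrain markers overlapped (7.48 to 8.92 FPKM in mutant pools, 6.80 to 9.11 FPKM in WT pools), as did the forebrain, midbrain and eye markers (0.979 to 1.59 FPKM in mutant pools, 0.925 to 2.62 FPKM in WT pools). The enteric neuron and neural crest markers did not (18.9 to 20.3 FPKM in mutant pools, 14.5 to 17.9 FPKM in WT pools). All 4 were above 0 (50.8% of all genes) and none passed in limma (3.69% of all genes) or limma-voom, while 1 had an unadjusted p below 0.05 in limma. Their sum overlapped without scaling. The part of these tissues in the *Hox* values was not tested.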

How the data were processed

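RNA was extracted from pools of 10 bodies of 3 dpf embryos and sequenced as stranded total RNA. Per the submitters' processing notes, HISAT2 2.2.1.0 (genome build GRCz11) and StringTie 2.0.3 were used, with transcripts guided by Ensembl gene models. The authors deposited FPKM per transcript, corrected for length and mapped fragments. Coverage, also deposited, is the mean read depth per transcript without scaling. The reads behind each FPKM are unknown, so no counting error is given.

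FPKM were summed per gene name and chromosome, divided by median-of-ratios factors and fitted as log2(FPKM + 0.1) for genes with a mean of at least 0.1 FPKM, with limma 3.58.1 in R 4.3.3 (two-sided, eBayes with a mean trend, no covariates, Benjamini-Hochberg over all genes tested). Genes were called at an adjusted p below 0.05 with at least a 2-fold change. Fold changes on this scale understate the change of low genes. The members, gene lists and rules were chosen with earlier results of these data known. Values are given for members with an adjusted p below 0.05, the 10 other members with the largest change among those without overlap, the highest member of each cluster, paralogues of called members, list and flanking genes with an adjusted p below 0.05 and the 2 highest genes of each list. The fit was tested on simulated data. An adjusted p above 0.05 does not show equal levels. With 3 pools against 3, an exact permutation test of a single value cannot go below p = 0.1, and none is given. Each pool is a separate clutch.

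Alternatives were pseudocounts of 1 and 0.01, a filter of any FPKM above 0 or of a mean of 1, unscaled values, limma-voom on read numbers derived from coverage (150 bases per read), robust eBayes, unnamed transcripts added, whole loci and each pool left out in turn. Other steps used Python 3.11.15, pandas 2.3.3, numpy 2.4.6 and matplotlib 3.10.9. Protein and promoter sequences and retained introns were not analysed here.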

Additional observations from a re-analysis of the deposited data

How the results depend on the processing

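No paired analysis was possible because the clutch numbers of the genotypes are not shared. The 2 *Hox* genes called were 0 with a pseudocount of 1 and 0 without scaling, and 1 in whole loci, and 0 to 2 when pools were left out. The 4 with an adjusted p below 0.05 were 8 with a mean of at least 1 FPKM, 2 without scaling, 2 with limma-voom, 14 with unnamed transcripts added, 10 in whole loci (where 1 locus can hold several genes) and 0 to 3 when pools were left out. The median log2 fold change of *Hox* genes was 0.24 without scaling, that of groups 9 to 13 was 0.48 with a pseudocount of 1, 0.39 without scaling and 0.52 in whole loci, and that of groups 1 to 8 was 0.046 without scaling and 0.12 to 0.33 when pools were left out. The number of genes of groups 9 to 13 with all mutant pools above all WT pools was 19, and 13 without scaling, the lowest over the settings run. The 1 cofactor or regulator called was 2 with unnamed transcripts added, 2 in whole loci and 0 to 1 when pools were left out. The 1 flanking gene was 0 with a pseudocount of 1, 0 with 0.01, 0 with any FPKM above 0, 0 with limma-voom, 2 with unnamed transcripts added, 2 in whole loci and 0 to 2 when pools were left out. The 1 *Hox* transcript was 2 with a pseudocount of 1 and 0 in every leave-out. *hoxc8a* turned to -0.18 without scaling, -0.025 in whole loci and -0.054 to 0.18 when pools were left out, and *hoxc6b* turned to 1.25 with unnamed transcripts added and 1.21 in whole loci. The causes were not tested. Shares of all genes passing, above 0 or without overlap under these settings are not given here, apart from 8.99% passing with unnamed transcripts added. Over all genes tested the median log2 fold change without scaling was -0.19. The settings for groups 9 to 13, groups 1 to 8 and flanking genes were chosen after seeing the data.

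Of 327 values of named *Hox* genes under alternatives, 282 kept their direction and their side of the threshold, 22 no longer passed, 16 newly passed and 7 changed sign.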
